A study of Mus musculus with 15 samples.

Results

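The genes described here encode the machinery that transcribes nuclear genes: the subunits of RNA polymerases I, II and III, the Mediator complex, the TBP-associated factors (TAFs), the general transcription factors of the Gtf2 and Gtf3 families, and the Supt and Ell elongation factors. They were chosen by symbol alone, as every entry of the expression table whose name starts with Polr1, Polr2, Polr3, Med, Taf, Gtf2, Gtf3 or Supt followed by a subunit designation, or that is Ell or Ell2. This gave 110 genes of the 9666 entries in the table. They comprise 28 polymerase genes, 29 Mediator genes, 22 TAF genes, 15 Gtf2 genes, 7 Gtf3 genes and 9 Supt and Ell genes. Levels are in RPKM, read counts scaled to gene length and library size, in 15 RNA-seq libraries of ventricular cardiomyocytes from wild-type C57BL/6 mice. There were 4 libraries from postnatal day 1 (P1), 4 from postnatal day 3 (P3) and 7 from adults of 8 to 12 weeks, and no group carried a transgene or a treatment. The series set neonatal against adult cardiomyocytes to look for mediators of regeneration of heart muscle.

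RNA polymerase I makes the large ribosomal RNA precursor, RNA polymerase II makes messenger RNA, and RNA polymerase III makes transfer RNA and 5S ribosomal RNA. Each uses its own initiation factors. Among them are the SL1 complex for polymerase I, TFIIA to TFIIH with TFIID for polymerase II, and TFIIIA and TFIIIC for polymerase III. Mediator bridges enhancer-bound activators and polymerase II, and DSIF, Spt6, FACT and the ELL proteins act once polymerase II has left the promoter. Cardiomyocytes of newborn mice still divide for a few days and then stop, grow and form polyploid cells.

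Promoter windows of RefSeq (GRCm38.p6, from 250 bases before to 50 bases after a transcription start) were found for 96 of the 110 genes, in 114 windows. Of 7 sets of letters searched on both strands, CCGGAAG, the core bound by ETS factors, was in 33.3% of the members' windows, in 19.4% of the windows of all genes in the table and in 8.86% of all 32851 windows. GCATGCGC, the core bound by NRF1, was in 11.4%, 5.74% and 2.71% of the same 3 sets of windows, AAGATGGC (YY1) in 10.5%, 5.11% and 2.75%, and CACGTG (E-box) in 18.4%, 10.5% and 7.15%. GGGCGG (GC box) was in 63.2%, 65.3% and 35.7%, TATAAA in 10.5%, 6.79% and 13.6%, and CCAAT in 32.5%, 37.8% and 37.4%. The windows of 4 members on which the results turn are shown 5′ to 3′ on the strand of the gene, with the searched letters, in either orientation, in capitals. They are Taf1d (chr9:15305964-15306263, plus strand) and Polr2a (chr11:69758584-69758883, minus strand), whose levels fell in adults beyond the median gene, and Polr3g (chr13:81710964-81711263, minus strand) and Polr3gl (chr3:96594132-96594431, minus strand), which encode alternative forms of the same subunit.
Taf1d: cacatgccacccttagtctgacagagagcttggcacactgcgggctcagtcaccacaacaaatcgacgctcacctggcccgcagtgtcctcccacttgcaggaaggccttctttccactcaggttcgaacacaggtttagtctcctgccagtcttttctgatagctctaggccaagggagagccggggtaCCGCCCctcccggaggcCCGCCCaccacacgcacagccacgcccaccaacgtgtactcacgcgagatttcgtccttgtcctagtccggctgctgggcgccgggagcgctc
Polr2a: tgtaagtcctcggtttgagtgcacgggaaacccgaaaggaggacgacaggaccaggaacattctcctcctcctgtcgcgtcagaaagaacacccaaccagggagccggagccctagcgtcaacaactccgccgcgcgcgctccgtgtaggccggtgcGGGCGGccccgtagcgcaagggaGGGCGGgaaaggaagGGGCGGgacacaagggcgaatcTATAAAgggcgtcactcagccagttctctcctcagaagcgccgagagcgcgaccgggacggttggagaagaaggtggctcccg
Polr3g: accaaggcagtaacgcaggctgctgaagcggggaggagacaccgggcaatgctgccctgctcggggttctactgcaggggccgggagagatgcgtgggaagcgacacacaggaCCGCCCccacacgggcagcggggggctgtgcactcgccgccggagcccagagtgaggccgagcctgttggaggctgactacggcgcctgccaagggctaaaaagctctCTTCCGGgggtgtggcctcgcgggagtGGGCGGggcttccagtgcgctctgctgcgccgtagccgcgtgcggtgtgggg
Polr3gl: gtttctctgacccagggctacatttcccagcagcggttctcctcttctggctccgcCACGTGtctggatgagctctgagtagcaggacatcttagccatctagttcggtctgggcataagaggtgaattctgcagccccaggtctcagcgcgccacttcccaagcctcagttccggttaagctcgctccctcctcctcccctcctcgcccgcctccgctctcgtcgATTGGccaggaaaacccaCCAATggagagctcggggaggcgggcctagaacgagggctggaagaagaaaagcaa
The Polr2a window was the one of these 4 with TATAAA, beside 3 GC boxes. Polr3g had a CTTCCGG, the reverse complement of the ETS letters, and 2 GC boxes. Polr3gl had none of these and held an E-box and 2 CCAAT letters in opposite orientations. Taf1d held 2 GC boxes only. No capitals of different motifs overlap in these windows. The letters describe the windows and were not tested as binding sites.

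All 110 members passed the filter on low values and were tested, among 9389 genes, with limma on log2(RPKM + 0.5), with Benjamini-Hochberg adjustment over all of them. A gene was called where its log2 change was 1 or more in size and its adjusted p was below 0.05. The median gene of the table stood at 8.41 to 8.79 RPKM in P1, 8.84 to 9.59 RPKM in P3 and 2.02 to 3.52 RPKM in adult libraries, so the whole scale differs between the ages. Changes are therefore given on the deposited scale and again with each library centred on its median gene. Summed RPKM of 10 cardiomyocyte markers, all in the table, was 5250 to 12200 in P1, 702 to 5600 in P3 and 20800 to 38300 in adult libraries. P3 replicate 1 had 5600 and P3 replicates 2 to 4 had 702 to 1300, and P1 replicate 1 was the lowest of P1. Endothelial markers (8 of 10 in the table) summed to 198 to 468 in P1, 670 to 1610 in P3 and 2.37 to 198 in adult libraries. Fibroblast markers (6 of 10) summed to 779 to 3260, 1910 to 3000 and 2.05 to 140 in the same order of ages, and mural markers (4 of 7) to 168 to 679, 614 to 1140 and 20.1 to 101. Immune, erythroid and epicardial markers had 0 entries in the table. The part of these other cells in the results was not tested, and in bulk RNA fewer cells of a type and less RNA per cell cannot be told apart. The RPKM denominators, recovered from the steps of the values, ran from 6300000 reads in adult replicate 4 to 17200000 in adult replicates 5 and 7. A median of 41 reads lay behind the lowest library of the 97 members whose reads could be recovered, and 6 of them had fewer than 10 reads in some library.

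On the deposited scale, 90 of the 110 members fell and 0 rose in adult against P1 libraries, where 62.7% of all tested genes fell and 4.32% rose. Against P3, 80 members fell and 1 rose, where again 62.7% of all genes fell and 9.16% rose. The members' median log2 change was -1.65 against P1 and -1.71 against P3, beside -1.36 and -1.48 for all genes. Both comparisons use the same 7 adult libraries. Without P3 replicates 2 to 4, 94 members fell and 0 rose against P3. Between P3 and P1, limma called 0 members higher and 1 lower, beside 1.4% and 5.31% of all genes, and 10 members had an unadjusted p under 0.05. In P3 minus P1 the median log2 change was 0.07 for members and 0.09 for all genes.

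Once libraries were centred on their median gene, 12 members were called lower and 4 higher in adult against P1, beside 13.7% and 21.6% of all genes. Against P3, 17 were lower and 11 higher, beside 19.1% and 27.1% of all genes. The median centred change of the members was -0.20 against P1 and -0.17 against P3, and that of all tested genes was 0.09 and 0.07. Without P3 replicates 2 to 4, which leaves a lone P3 library assumed to vary like the other groups, the centred calls against P3 were 13 lower and 6 higher.

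**Figure D1:**
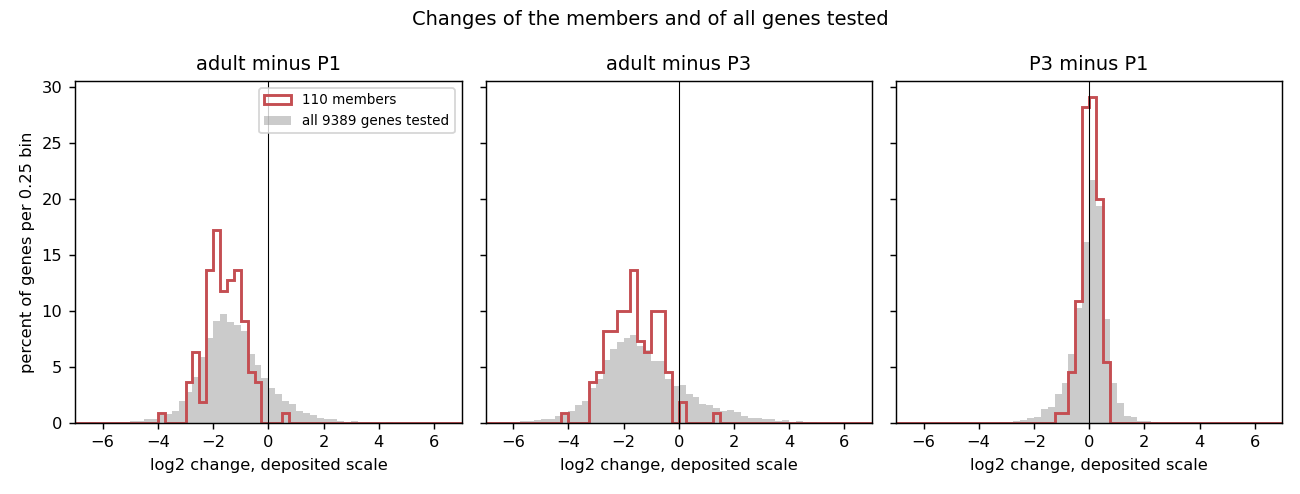
Distribution of log2 changes on the deposited scale for the 110 members (red outline) and all 9389 tested genes (grey), as percent of genes per bin, for adult minus P1, adult minus P3 and P3 minus P1, with values past 7 in the end bins. Members and all genes are both centred well below 0 in the adult comparisons, and the members spread less.

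The members changed within a narrower range than genes at large. The interquartile range of their log2 changes was 0.91 in adult minus P1, 1.28 in adult minus P3 and 0.45 in P3 minus P1, against 1.44, 1.90 and 0.66 for all tested genes. On centred levels 85.5% of members and 64.5% of all genes lay within 1 log2 unit of no change in adult minus P1, and 74.5% and 53.6% did so in adult minus P3. Between P3 and P1, 109 of the 110 members lay within 1 unit on either scale. The plot of both distributions shows the thinner tails of the members.

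**Figure D2:**
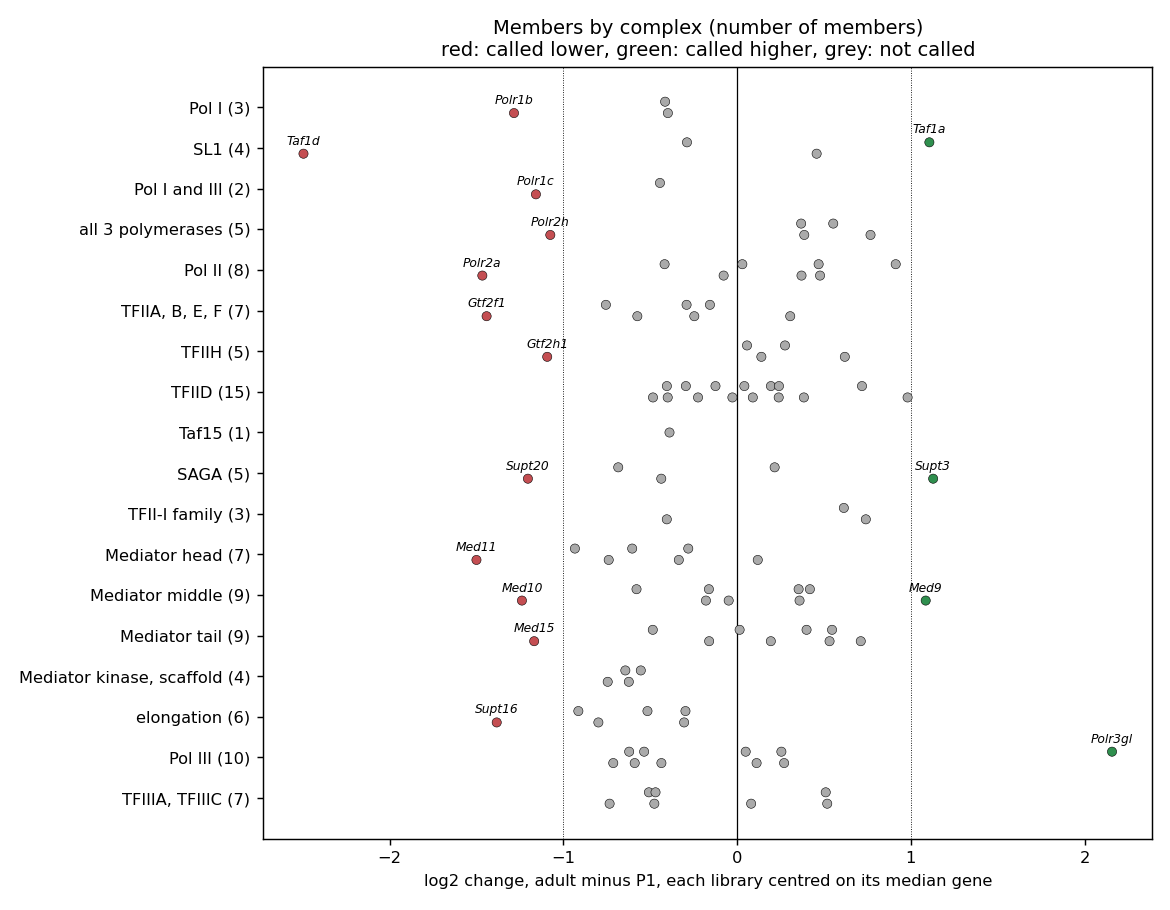
Log2 change in adult minus P1 of each of the 110 members, by complex, with each library centred on its median gene. Dotted lines mark a change of 1 in either direction, and the 12 members called lower and 4 called higher are named.

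Genes of the polymerase I machinery were called in both directions on centred levels. Taf1d, a subunit of the SL1 factor that in human also hosts small nucleolar RNAs in its introns, had 37.0, 22.9, 29.4 and 21.5 RPKM in P1 libraries, 36.8, 37.9, 36.5 and 23.3 RPKM in P3 libraries, and 0.841, 1.16 and 2.68 RPKM as the lowest, median and highest of the adults. Adult libraries did not overlap with either neonatal group. Taf1d fell by 3.95 on the log2 scale against P1 (SE 0.23, limma adjusted p 1.2e-10) and by 4.23 against P3 (adjusted p 2.9e-11), the lowest change of any member in both. On centred levels it still fell by 2.496 against P1 and by 2.68 against P3 (adjusted p 2.7e-08 and 5.1e-09). Of its SL1 partners, Taf1c also fell, by 1.74 against P1, and Taf1b and Taf1a had log2 changes of -0.99 and -0.34 that were not called. Taf1a had 4.79, 3.02, 3.99 and 2.86 RPKM in P1, 3.56, 4.85, 3.11 and 3.85 RPKM in P3 and 1.90, 2.67 and 3.92 RPKM as the lowest, median and highest adult, so that the groups overlapped. On centred levels Taf1a was called higher against P1 at 1.11, a call lost with adult replicates 5 to 7 only, where the change was 0.72 (limma adjusted p 0.0081). That call was also lost under median-of-ratios scaling, as was the centred call of Taf1a against P3 (1.13).

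Polr1b, the second-largest polymerase I subunit, had 7.85, 12.8, 13.1 and 9.86 RPKM in P1 libraries and 12.5, 12.8, 9.14 and 8.25 RPKM in P3 libraries, and 0.677, 1.16 and 1.76 RPKM as the lowest, median and highest adult. It fell by 2.74 against P1 and by 2.71 against P3 (limma adjusted p 2.9e-09 and 1.8e-09), and its centred changes of -1.28 and -1.17 were also called, the second not with adult replicates 5 to 7 only (-0.99). Polr1a, the largest subunit, averaged 14.6 ± 3.40 RPKM in P1, 15.3 ± 3.16 RPKM in P3 and 3.92 ± 1.88 RPKM in adults (SD, n = 4, 4 and 7). It fell by 1.85 against P1 and was not called on centred levels (-0.40, limma adjusted p 0.14). The log2 ratio of Polr1a to Polr1b within a library, which no scaling of libraries can change except through the pseudocount, averaged 0.40 ± 0.02 in P1, 0.50 ± 0.14 in P3 and 1.29 ± 0.29 in adults (SD). Adult libraries lay above all neonatal ones (exact two-sided permutation p 0.003 in each comparison with adults, the smallest 330 relabellings can give, Benjamini-Hochberg adjusted 0.011 over 54 tests of 18 pairs).

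Polr1e, the polymerase I subunit known as PAF53, was the only member called between P3 and P1. Its levels were 9.01, 4.78, 3.47 and 3.51 RPKM in P3 replicates 1 to 4, and 6.08, 13.8, 11.5 and 11.6 RPKM in P1 replicates 1 to 4. P3 replicate 1 and P1 replicate 1 lay between the other libraries of the 2 groups and overlapped across them. Polr1e fell by 1.022 in P3 against P1 (SE 0.29, limma adjusted p 0.036). The call is lost when P1 replicate 2, 3 or 4 (-0.89, -0.97 and -0.97) or P3 replicate 2, 3 or 4 (-1.019, -0.88 and -0.89) is left out, with adjusted p from 0.089 to 0.15. With P3 replicate 1 as the only P3 library the change was -0.18. The libraries with lower Polr1e within each neonatal group were those with lower summed cardiomyocyte markers, 702 to 1300 RPKM in P3 replicates 2 to 4 against 5600 in P3 replicate 1, and 5250 in P1 replicate 1 against 8450 to 12200 in the rest of P1. In adults, Polr1e stood at 1.83, 2.66 and 3.50 RPKM as the lowest, median and highest, below P1, against which it fell by 1.87 (limma adjusted p 2e-06). Its change of -0.84 against P3 was not called, and was -1.68 (adjusted p 0.0014) with P3 replicate 1 as the only P3 library. The part of cell composition in these differences was not tested.

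**Figure D3:**
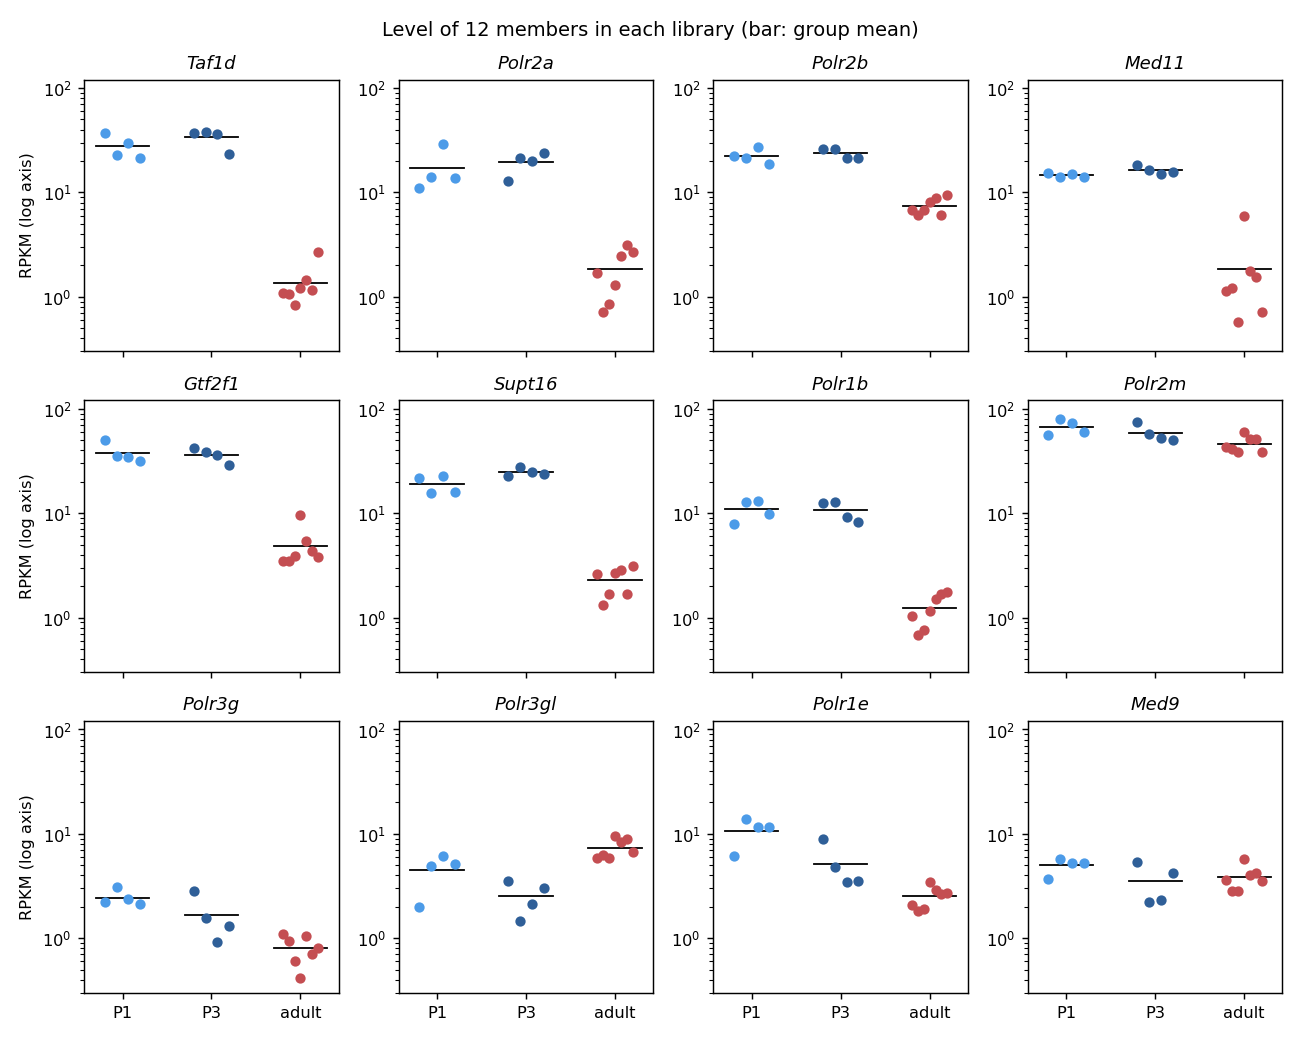
RPKM on a log axis of 12 members in each library of P1 (n = 4), P3 (n = 4) and adult (n = 7) cardiomyocytes, with a bar at each group mean. Adult libraries lie below all neonatal libraries for Taf1d, Polr2a, Polr2b, Med11, Gtf2f1, Supt16 and Polr1b, and adult Polr3gl lies above all P3 libraries.

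In RNA polymerase II the largest subunit was the one subunit specific to that enzyme called lower on centred levels. Polr2a, which carries the catalytic site and the C-terminal repeat domain, had 10.99, 14, 29.3 and 13.9 RPKM in P1, 13.0, 21.3, 20.2 and 23.9 RPKM in P3, and 0.723, 1.68 and 3.12 RPKM as the lowest, median and highest adult. It fell by 2.92 against P1 and by 3.18 against P3 (limma adjusted p 9.4e-08 and 2.2e-08), and by 1.47 and 1.63 on centred levels (adjusted p 0.00014 and 3.3e-05). The centred call against P3 is lost with P3 replicate 1 as the only P3 library (-1.03, adjusted p 0.078). Polr2b, its partner in the active centre, had 22.4, 21.2, 27.0 and 18.8 RPKM in P1, 26.05, 26.1, 21.3 and 21.4 RPKM in P3, and 6.03, 6.83 and 9.45 RPKM as the lowest, median and highest adult. Its fall of 1.53 against P1 was close to that of the median gene, with a centred change of -0.08 (SE 0.14, limma adjusted p 0.65). The log2 ratio of Polr2a to Polr2b averaged -0.47 ± 0.46 in P1, -0.30 ± 0.49 in P3 and -1.86 ± 0.56 in adults (SD). It differed from P1 by -1.39 and from P3 by -1.56 (exact permutation p 0.0061 each, adjusted 0.018), with 1 adult library inside the neonatal range. With adult replicates 5 to 7 only the differences were -0.92 and -1.10 (exact permutation p 0.086 each), and with P3 replicate 1 as the only P3 library the second was -0.88.

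Of 8 genes specific to polymerase II, 5 fell against P1 with a median of -1.25, where 62.7% of all tested genes fell. Of the 5 subunits common to all 3 polymerases 3 fell, with a median of -1.07, so both counts were near the share of all genes. Among the shared ones Polr2h alone was called on centred levels against P1 (-1.08), a call lost without P1 replicate 1 (-0.93) or adult replicate 7 (-0.95) and with adult replicates 1 to 4 only (-0.73). Polr2l averaged 24.0 ± 2.09 RPKM in P1, 19.4 ± 6.49 RPKM in P3 and 16.2 ± 9.05 RPKM in adults, with adult replicate 4 at 35.6 RPKM. Polr2m, which encodes the polymerase II-bound protein Gdown1, was the most abundant member in each age by group mean. It had 55.8, 79.7, 73.5 and 60.3 RPKM in P1, 74.2, 57.7, 51.9 and 49.99 RPKM in P3 and 38.3, 43.1 and 60.2 RPKM as the lowest, median and highest adult, and the groups overlapped. Its log2 changes of -0.54 against P1 and -0.33 against P3 were not called. On centred levels Polr2m and Polr2l were each called higher against P3 (1.21 for both), calls lost with P3 replicate 1 as the only P3 library (0.91 and 0.67) and, for Polr2m, under quantile normalization. In human this locus is known to give read-through transcripts with its neighbour MYZAP, a gene of the cardiac junction, and how such reads were counted here is not known.

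RNA polymerase III contains either Polr3g or Polr3gl, 2 forms of one subunit of which the first is best known from human stem and tumour cells and the second from differentiated tissue. Polr3gl was the only member that rose in adults on the deposited scale. It had 2.0, 4.92, 6.18 and 5.10 RPKM in P1 replicates 1 to 4, 3.51, 1.48, 2.15 and 3.01 RPKM in P3 replicates 1 to 4, and 5.87, 6.74 and 9.49 RPKM as the lowest, median and highest adult. Every adult library lay above every P3 library, and 1 P1 library reached into the adult range. Polr3gl rose by 1.401 against P3 (SE 0.26, limma adjusted p 5e-05), which becomes 0.95 (adjusted p 0.059) with P3 replicate 1 as the only P3 library. Its change of 0.71 against P1 was not called. On centred levels it rose by 2.16 against P1 and by 2.95 against P3 (adjusted p 5.7e-07 and 7.5e-09), and both centred calls held without any 1 library, with either set of adults and without P3 replicates 2 to 4. Between P3 and P1 its change was -0.70 (adjusted p 0.13), called lower only without P1 replicate 1 (-1.003, adjusted p 0.013), the P1 library with the fewest cardiomyocyte markers.

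Polr3g had 2.24, 3.07, 2.36 and 2.15 RPKM in P1, 2.86, 1.55, 0.923 and 1.31 RPKM in P3, and 0.417, 0.80 and 1.10 RPKM as the lowest, median and highest adult, the lowest from 8 reads. It fell by 1.20 against P1 (limma adjusted p 4.4e-05), and its change of -0.68 against P3 was not called, but was -1.39 (adjusted p 0.001) and a call with P3 replicate 1 as the only P3 library. On centred levels its changes were 0.25 and 0.86, neither called, and the second was called higher (1.08) without P3 replicate 1. The log2 ratio of Polr3g to Polr3gl averaged -0.69 ± 0.61 in P1, -0.51 ± 0.49 in P3 and -2.60 ± 0.48 in adults (SD). All 7 adult libraries lay below all 8 neonatal ones, by a mean of 1.90 log2 units against P1 and 2.08 against P3 (exact permutation p 0.003 each, adjusted 0.011). The difference against P3 was -2.34 with P3 replicate 1 as the only P3 library. P3 and P1 differed by 0.18 (exact permutation p 0.69), within their spread.

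The other 8 subunits specific to polymerase III all fell against P1 and against P3, where 62.7% of all genes fell in each. Polr3a, which holds the active centre, fell by 2.16 against P1 and Polr3b, its partner, by 1.89, and neither was called on centred levels (-0.71 and -0.44). Relative to Polr2a within a library, the log2 level of Polr3a was higher in adults by 0.75 than in P1 (exact permutation p 0.018, adjusted 0.045), with overlap, and by 0.52 without P1 replicate 3. Likewise that of Polr1a was higher in adults by 1.07 than in P1 and by 1.25 than in P3, with no overlap (exact permutation p 0.003 each, adjusted 0.011). Of the polymerase III factors, Gtf3c1, the largest TFIIIC subunit, fell by 2.19 against P1 and Gtf3a, which binds the 5S gene, had a change of -0.93 that was not called and became a call (-1.05) without adult replicate 4. Their centred changes against P1 were -0.73 for Gtf3c1 and 0.52 for Gtf3a, neither called. Against P3, Gtf3a was called higher on centred levels at 1.003, a call lost without P3 replicate 2 or 3 or adult replicate 2 or 4, with adult replicates 5 to 7 only, with P3 replicate 1 as the only P3 library (0.57) and under quantile and median-of-ratios scaling. Gtf3a shares 965 exonic bases with Mtif3 on the opposite strand, and whether counting used strand is not given in the sources used here.

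**Figure D4:**
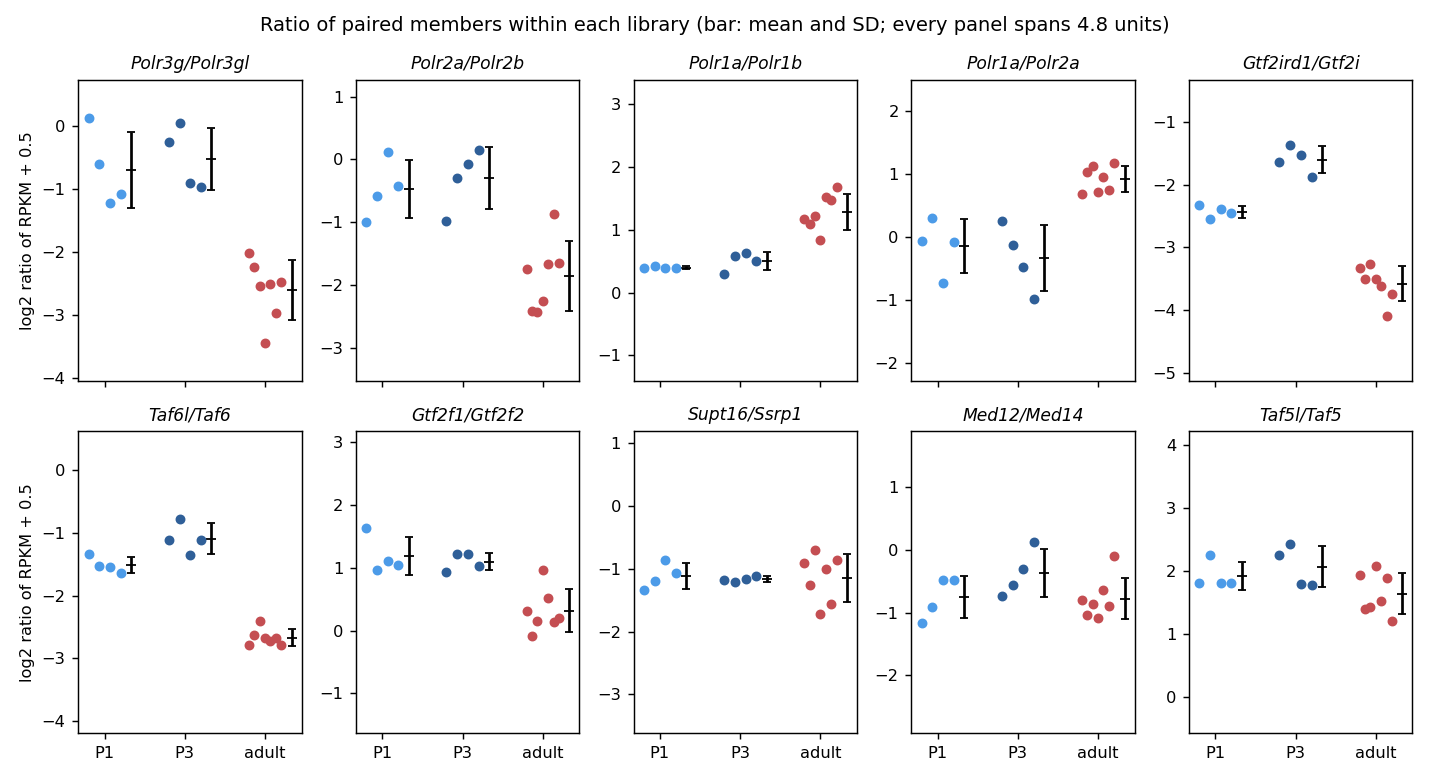
Log2 ratio of RPKM + 0.5 of 10 pairs within each library, with the mean and SD of each group beside the points and the same span in every panel. Polr3g to Polr3gl, Polr1a to Polr1b, Polr1a to Polr2a, Gtf2ird1 to Gtf2i and Taf6l to Taf6 show adult libraries apart from all neonatal ones, and Supt16 to Ssrp1 and Med12 to Med14 do not. Adult Med12 was low, so the 0.5 added to both genes weighs on the Med12 to Med14 ratio.

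Over all 18 pairs, 11 log2 ratios differed between adult and P1 libraries after adjustment, 5 of them higher in adults and 6 lower, and 14 differed between adult and P3, 7 in each direction. The count against P1 was 7 without P1 replicate 3 or without adult replicate 1. Ratios of other gene pairs were not computed, so these counts show nothing particular to these complexes. Between P3 and P1 0 of 18 passed the adjusted threshold, where 70 relabellings allow no unadjusted p below 0.029. Med13l to Med13 and Gtf2ird1 to Gtf2i reached that smallest value, at 0.37 and 0.83 higher in P3 than in P1. The pair of genes in the FACT histone chaperone, Supt16 and Ssrp1, had a log2 ratio of -1.12 ± 0.20 in P1, -1.17 ± 0.05 in P3 and -1.14 ± 0.38 in adults (SD), a difference of -0.03 against P1 (exact permutation p 0.89).

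Of the 15 TFIID subunits, 13 fell against P1 and 11 against P3 on the deposited scale, where 62.7% of all genes fell in each. Their medians of -1.41 and -1.498 were close to the median gene. On centred levels limma called 0 of these subunits in adult minus P1, beside 13.7% of all genes lower and 21.6% higher. In adult minus P3 it called 0 lower and 3 higher, beside 19.1% and 27.1% of all genes. None of these 3, Taf12 (1.21), Taf6 (1.004) and Taf9b (1.04), held in all settings. Taf12 was lost with P3 replicate 1 as the only P3 library (0.98), Taf6 without P3 replicate 1 or 2 or adult replicate 5 or 6 and with adult replicates 1 to 4 only, and Taf9b without P3 replicate 3 or adult replicate 2, with adult replicates 5 to 7 only and with P3 replicate 1 as the only P3 library (0.70). Taf6 and Taf9b were also lost under quantile and median-of-ratios scaling. Taf1, the largest subunit, fell by 1.48 against P1 and by 1.97 against P3, and its centred changes were -0.03 and -0.43. Taf10, which TFIID shares with the SAGA complex, fell by 1.41 and 1.35, but its 1533 exonic bases shared with Ilk on the other strand make its level uncertain. Taf12 and Taf6, both with histone folds, had changes of -0.47 and -0.73 against P1 that were not called. The SAGA forms of 2 TAFs were read against their TFIID counterparts. The log2 ratio of Taf6l to Taf6 averaged -1.51 ± 0.13 in P1, -1.09 ± 0.24 in P3 and -2.67 ± 0.13 in adults (SD). Adults lay below all neonatal libraries (exact permutation p 0.003, adjusted 0.011 in each), with adult Taf6l at 0.204 to 0.752 RPKM. The log2 ratio of Taf5l to Taf5 differed by -0.28 against P1 (exact permutation p 0.17). Adult Taf5 stood at 0.125 to 0.537 RPKM, from as few as 4 reads, so the 0.5 added to both genes largely sets that ratio. Whether Taf5l and Taf5 moved apart cannot be read from it. Taf6 shares 903 exonic bases with Ap4m1 on the opposite strand. Of the other SAGA genes Supt20 fell on centred levels (-1.20 against P1, limma adjusted p 0.00024), with as few as 8 reads in an adult library. Supt3 was called higher against P1 (1.13, limma adjusted p 0.00026), which is 0.91 and not called without P1 replicate 3. Against P3, Supt3 was also called higher on centred levels, a call that held without any 1 library and with either set of adults. Taf9b, a paralog of Taf9, had a log2 ratio to Taf9 that was higher in adults than in P3 by 1.24 and by 0.42 than in P1, the first with adjusted exact permutation p 0.011, but Taf9 shares 1119 exonic bases with Ak6 on the same strand.

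Among the general factors of polymerase II, Gtf2f1, the larger TFIIF subunit, was the one called lower on centred levels outside TFIIH. It had 50.3, 35.1, 34.6 and 31.6 RPKM in P1, 41.9, 38.8, 36.2 and 28.8 RPKM in P3 and 3.49, 3.86 and 9.54 RPKM as the lowest, median and highest adult. It fell by 2.89 against P1 and by 2.85 against P3, and by 1.44 and 1.30 on centred levels (limma adjusted p 7.1e-06 and 1.3e-05). Its log2 ratio to Gtf2f2, the smaller TFIIF subunit, was lower in adults by 0.87 than in P1 and by 0.78 than in P3 (exact permutation p 0.003 and 0.0061, adjusted 0.011 and 0.018). All 7 genes of TFIIA, TFIIB, TFIIE and TFIIF fell against P1, with a median of -1.74, and 6 fell against P3. Of all genes 62.7% fell in each. Gtf2b, the single subunit of TFIIB, fell by 1.74 and 1.72, and Gtf2a2, the small TFIIA subunit, by 1.15 against P1, or -0.97 and no call with adult replicates 5 to 7 only. In TFIIH, which opens the promoter and repairs DNA, Gtf2h1 fell by 2.54 against P1, and by 1.09 on centred levels, or -0.87 and no call without P1 replicate 1, while the median of the 5 subunits was -1.31.

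The TFII-I family is named as a general factor but consists of sequence-specific regulators, whose genes lie in the interval affected in Williams syndrome in human. Gtf2i had 22.3, 27.0, 26.3 and 26.4 RPKM in P1, 19.3, 18.1, 20.2 and 29.8 RPKM in P3 and 10.2, 15.7 and 21.5 RPKM as the lowest, median and highest adult, and was not called on the deposited scale (-0.71 and -0.47). On centred levels it was called higher against P3 (1.07), a call lost without P3 replicate 2 (0.99), with adult replicates 1 to 4 only (0.90) and under quantile normalization. Gtf2ird1 had 4.03, 4.21, 4.58 and 4.38 RPKM in P1, 5.86, 6.70, 6.67 and 7.74 RPKM in P3 and 0.447, 0.921 and 1.19 RPKM as the lowest, median and highest adult. The 3 groups of Gtf2ird1 did not overlap. It fell by 1.86 against P1 and by 2.44 against P3 (limma adjusted p 1.4e-08 and 2.9e-10), and the change of 0.59 between P3 and P1 was not called (adjusted p 0.059). The log2 ratio of Gtf2ird1 to Gtf2i averaged -2.43 ± 0.09 in P1, -1.61 ± 0.22 in P3 and -3.58 ± 0.28 in adults (SD), with adults apart from both (exact permutation p 0.003, adjusted 0.011). Gtf2ird1 shares 194 exonic bases with an antisense gene, and reads of the related Gtf2ird2, one of the 3 lowest members, may be split with Gtf2i.

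Of the 29 Mediator genes, 25 fell against P1 and 23 against P3, where 62.7% of all genes fell in each. On centred levels 3 were called lower and 1 higher against P1, beside 13.7% and 21.6% of all genes. Against P3, 7 were called lower and 1 higher on that scale, beside 19.1% and 27.1% of all genes. All 7 head genes fell in both on the deposited scale, with medians of -2.06 against P1 and -2.55 against P3. Of these, 1 and 4 were called lower on centred levels. Among the 4, the calls of Med6 (-1.002) and Med22 (-1.028) were lost without P3 replicate 2 and with adult replicates 1 to 4 only. That of Med6 was also lost without P3 replicate 1 or adult replicate 1, 5, 6 or 7. The 3 kinase module genes fell too, Med12 by 2.09, Med13 by 2.20 and Med13l by 2.01 against P1. Of 9 tail genes 6 fell against P1, with a median of -1.26, and the centred median was 0.19. No test compared the modules.

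Med11, a head subunit, had 15.2, 14.2, 15.1 and 14.1 RPKM in P1, 18.1, 16.3, 15.05 and 15.8 RPKM in P3, and 0.574, 1.22 and 5.91 RPKM as the lowest, median and highest adult. Neonatal libraries were within a few RPKM of each other and the adults spread about the low end, with adult replicate 4 the highest and as few as 5 reads in another. It fell by 2.95 against P1 and 3.10 against P3 (limma adjusted p 1.7e-07 and 6.7e-08), and by 1.5 and 1.554 on centred levels. Med10, in the middle module, fell by 1.24 against P1 on centred levels. Med15, a tail subunit that binds SREBP, fell by 1.17 on that scale, or -0.82 and no call with adult replicates 5 to 7 only. Med9, also in the middle module, had 3.73, 5.79, 5.29 and 5.25 RPKM in P1, 5.32, 2.21, 2.34 and 4.21 RPKM in P3 and 2.81, 3.61 and 5.71 RPKM as the lowest, median and highest adult. The 3 groups of Med9 overlapped, and it was not called on the deposited scale (-0.37 and 0.15). Its centred change against P1 of 1.09 was called but became 0.97 and no call without P1 replicate 1 or with adult replicates 5 to 7 only. Against P3, Med9 was also called higher on centred levels, a call that held without any 1 library and with either set of adults.

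Med13l and Med12 were read in pairs with Med13 and Med14. Med13l had 4.44, 5.30, 5.58 and 4.94 RPKM in P1, 6.49, 9.49, 10.9 and 7.76 RPKM in P3 and 0.397, 0.906 and 1.39 RPKM as the lowest, median and highest adult. All P3 libraries lay above all P1 libraries, but the change of 0.70 between P3 and P1 was not called (limma adjusted p 0.086). Med13l and Med13 had a log2 ratio that differed between adult and P1 by 0.19 and between adult and P3 by -0.18, within the spread (exact permutation p 0.35 and 0.22). With adult Med13l at 0.397 to 1.39 RPKM, the 0.5 added to both genes weighs on the size and sign of these differences. The log2 ratio of Med12 to Med14, the scaffold of Mediator, differed by -0.02 between adult and P1 (exact permutation p 0.93). Adult Med12 stood at 0.203 to 2.45 RPKM, from as few as 16 reads, so the 0.5 added to both genes weighs on that difference too. Whether Med12 and Med14 moved apart cannot be read from it. Med1, the subunit that nuclear receptors contact, fell by 1.63 against P1 and by 1.92 against P3, and Med23 by 1.94 and 2.22.

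All 6 elongation genes fell in adults against both neonatal groups, with medians of -2.11 and -2.23, where 62.7% of all genes fell in each. On centred levels 1 of the 6 was called lower against P1 and 2 against P3, beside 13.7% and 19.1% of all genes. Supt6, called against P3 only (-1.084), lost that call with adult replicates 5 to 7 only (-0.785). Its change was -0.838 with P3 replicate 1 as the only P3 library. The centred medians were -0.66 and -0.69. Supt16, the large FACT subunit, had 21.9, 15.7, 22.5 and 16.1 RPKM in P1, 22.5, 27.7, 24.7 and 23.8 RPKM in P3 and 1.33, 2.60 and 3.10 RPKM as the lowest, median and highest adult. It fell by 2.84 and 3.21, and on centred levels by 1.38 and 1.67 (limma adjusted p 1e-06 and 5.8e-08). Supt5, the large subunit of the pausing factor DSIF, fell by 1.97 against P1, Supt4a, its small partner, by 1.76, and Supt6, a histone chaperone that travels with polymerase II, by 2.37. Relative to Supt5 within a library, the log2 level of Supt6 was lower in adults by 0.40 than in P1 and by 0.57 than in P3, with no overlap (exact permutation p 0.003 each, adjusted 0.011). Ell and Ell2, which suppress pausing, fell by 2.25 and 1.75 against P1, and their log2 ratio differed there by 0.50 (exact permutation p 0.14, overlapping). Supt16 shares 926 exonic bases with Rpgrip1 and Supt6 shares 242 with Sdf2, both on the opposite strand.

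Genes that work with these complexes, from a list of 91 partners of which 88 were tested, were read the same way. Of the 88, 73 fell and 1 rose against P1 with a median of -1.80, and 74 fell and 2 rose against P3 with a median of -1.86, where 62.7% of all genes fell in each. On centred levels 12 were lower and 6 higher against P1, beside 13.7% and 21.6% of all genes. Against P3, 18 were lower and 8 higher, beside 19.1% and 27.1% of all genes. The centred medians of the partners were -0.34 and -0.32. The kinase of P-TEFb, Cdk9, averaged 14.3 RPKM in P1, 22.4 RPKM in P3 and 1.69 RPKM in adults, and fell by 2.78 against P1 and by 1.32 on centred levels (limma adjusted p 9.3e-09 and 3.8e-05). The TATA-binding protein gene Tbp fell by 2.16 against P1 and was not called on centred levels (-0.71). The 6 genes of mitochondrial transcription, a separate machinery, had a median of -0.75 against P1, with 2 fallen, and a centred median of 0.70. The partner that rose in both comparisons, named after its value was seen, was Tcea3, a form of the elongation factor TFIIS. Tcea3 averaged 3.64 RPKM in P1, 0.886 RPKM in P3 and 36.0 RPKM in adults, and rose by 3.14 against P1 and by 4.94 against P3 (limma adjusted p 7.2e-08 and 1.9e-10). Between P3 and P1, 1 of the 88 partners was called lower and 1 higher, beside 5.31% and 1.4% of all genes. They were Tcea3 (-1.80, limma adjusted p 0.011) and Eaf1 (1.03, adjusted p 0.038), the latter also named after its value was seen. Partners were not read without P3 replicates 2 to 4. The order of the 3 group means of Tcea3, adult, P1 and P3 from high to low, is also that of the summed cardiomyocyte markers, whose part in this result was not tested.

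**Figure D5:**
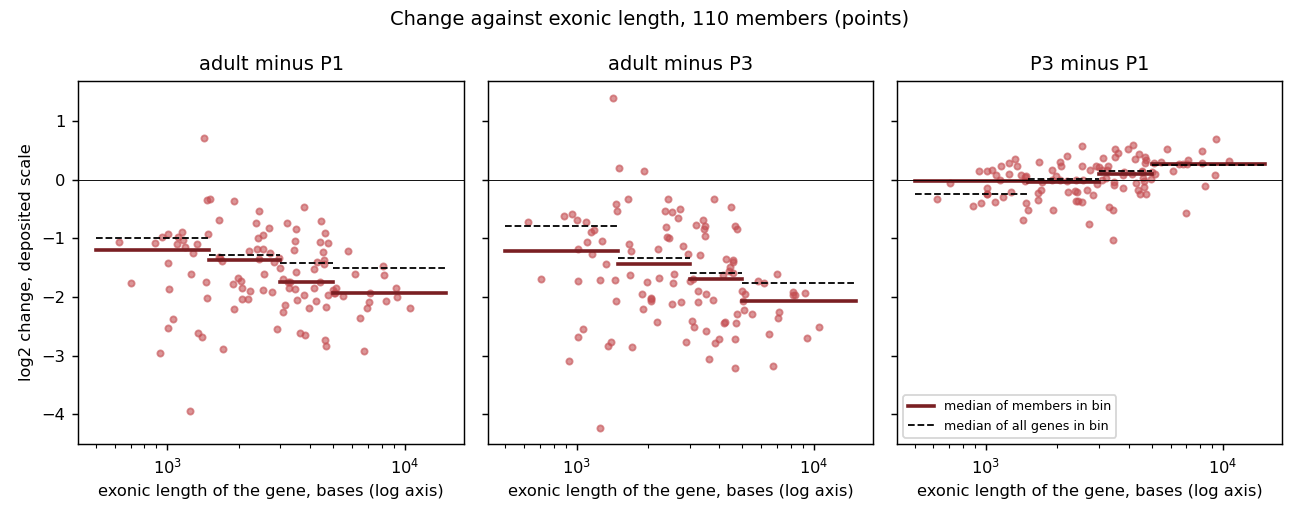
Log2 change on the deposited scale of the 110 members against exonic length on a log axis, in 3 comparisons, with medians in 4 length bins for the members (solid) and for all tested genes with a length (dashed). Longer members changed more negatively in both adult comparisons and more positively in P3 minus P1, as did all genes.

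The changes of the members were graded with gene length. Over the 110 members, Spearman's rho between log2 change and GENCODE exonic length was -0.27 in adult minus P1, -0.30 in adult minus P3 and 0.37 in P3 minus P1, and over 9213 tested genes it was -0.11, -0.18 and 0.29. These values describe genes of the same libraries, which are not independent replicates. The 26 members under 1500 bases had a median change of -1.20 in adult minus P1, and the 17 members of at least 5000 bases, a thinly filled bin with Polr2a and the Mediator kinase genes, had -1.94. All genes in the same bins had -0.999 and -1.508. In P3 minus P1 the 2 bins of members stood at -0.02 and 0.27, and those of all genes at -0.25 and 0.25. The part of length in the changes of single members was not tested.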

How the data were processed

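Total RNA from TRIzol went into Illumina TruSeq libraries, per the labels' protocols. The authors deposited 1 table of RPKM values, and HISAT2, Partek 6.6 and mm10 are named per the submitters' processing notes. What annotation and counting options were used, and whether counting was stranded, is not given in the sources used here. Each listed gene is above 0.1 RPKM in every library, so genes below that in any library are not analysed here. Nothing says that libraries came from separate animals, so p-values measure the spread between libraries, which may be technical.

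The 9389 genes reaching 1 RPKM in 4 or more libraries entered a limma 3.58.1 fit (R 4.3.3) of log2(RPKM + 0.5) (eBayes with trend, 1 coefficient per group, Benjamini-Hochberg adjustment over all tested genes, two-sided). Fold changes on this scale understate those of low genes. The script was tested on simulated data. Centring subtracted each library's median log2 value. Pair ratios were compared by exact permutation of the library labels. Reads behind RPKM steps were recovered within a relative tolerance of 1e-05, and such depths cover counting error only. Exon overlaps and lengths are from GENCODE M21, and promoters from RefSeq on GRCm38.p6.

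Members, lists and pairs were chosen with earlier results of these data known. Genes given with full values are fixed subunits of each complex, the 5 highest and 5 lowest changes per comparison, members called against the general direction, and the 3 highest and 3 lowest levels. Members called on centred levels were named after their values were seen.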

Additional observations from a re-analysis of the deposited data

Results flagged for a closer look

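A single library lay far from the rest of its group in 16 of 156 groups of values tested (52 genes in 3 groups), where chance alone gives about 1 in 20. In adult replicate 4 this held for Polr2h at 6.883 RPKM, Polr2l at 35.56, Med10 at 7.208, Med11 at 5.914, Taf10 at 30.73, Gtf2f1 at 9.54, Gtf3a at 8.057 and Supt4a at 20.69 RPKM, each the highest adult value. The RPKM sum of that library was 280112, against 145050 to 195003 in the other adults. Flags in the same library are not independent of each other. In P1 replicate 3 it held for Polr2a at 29.28, Med23 at 6.288 and Gtf2b at 28.68 RPKM. In P1 replicate 1 it held for Gtf2i at 22.27 and Ell2 at 9.803 RPKM. Taf1d stood apart at 23.31 RPKM in P3 replicate 4 and at 2.676 RPKM in adult replicate 7, and Gtf2b at 28.79 RPKM in P3 replicate 1.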

How the results depend on the processing

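The scale decides most counts of members, and the cause was not tested. Centring libraries, quantile normalization, median-of-ratios scaling, an equal RPKM sum and an equal sum without the 100 highest genes gave 4, 4, 3, 1 and 1 members higher and 12, 12, 13, 58 and 42 lower in adult minus P1, against 0 and 90 as deposited. For adult minus P3 the first 3 gave 11, 6 and 8 higher and 17, 25 and 26 lower, and the equal sum without the 100 highest genes gave 3 and 51, against 1 and 80. A mean RPKM of at least 5, which tests fewer members, left 58 and 50 lower. No fold threshold gave 1 higher in adult minus P1 and 2 lower in P3 minus P1. The single P3 minus P1 call became 0 with either equal sum, pseudocount 1, 2 groups only, adult replicates 1 to 4, the replicate block or without P3 replicates 2 to 4, which also left 0 higher in adult minus P3. Leaving out 1 library gave 87 to 96, 77 to 83 and 0 to 2 lower, and 0 to 0, 1 to 1 and 0 to 0 higher, in adult minus P1, adult minus P3 and P3 minus P1. On centred levels adult replicates 5 to 7 left 2 higher in adult minus P1, and omitting P3 replicates 2 to 4 left 6 higher in adult minus P3. Set beside the 11 higher and 17 lower of centring, quantile normalization and median-of-ratios scaling are scalings of their own. Leaving out 1 library from the centred fit gave 4 to 5 and 9 to 15 higher and 10 to 12 and 15 to 19 lower.

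On the deposited scale 1 member was above 0 in adult minus P1, and on centred levels 47 were, Med9, Supt3, Taf1a and Gtf3a among them. Named members called lower as deposited whose changes turned positive under centring, quantile normalization and median-of-ratios scaling, in that order, were Taf4 (0.384, 0.296, 0.169), Taf9b (0.195, 0.182, 0.09) and Gtf2a2 (0.306, 0.137, 0.358) in adult minus P1 and Taf7 in adult minus P3 (0.266, 0.227, 0.13). Polr3g in adult minus P1 was 0.255 under centring and 0.043 under quantile normalization, Med18 0.119 and, in adult minus P3, Taf4 0.048 under centring, and Taf10 was 0.042 under centring and 0.097 under median-of-ratios scaling against P1, and 0.194 and 0.238 against P3. Of the log2 changes of named members, 4361 of 4776 kept their direction and side of the threshold. The number of pairs past the adjusted threshold was 0 with either set of adults, and 0 against P3 without P3 replicates 2 to 4, where too few relabellings exist; it was 7 to 10 and 10 to 14 without 1 library, and no pair past an unadjusted 0.05 changed direction.

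The labels give no shared animal or batch behind replicate numbers, and the deviations of same-numbered libraries correlated between -0.506 (P1 and P3 replicate 1) and 0.371 (P1 and P3 replicate 4), with 3 of 12 pairs over 0.1, so the numbers were not taken to pair the libraries. With the replicate block 91 members were lower in adult minus P1, 82 in adult minus P3 and 0 in P3 minus P1. Centring combined with omitted libraries, the adult sets and omission of P3 replicates 2 to 4 were chosen after seeing the data. Fewer than 50 reads in some library lay behind 57 of 97 members.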
